A study of Mus musculus with 2 samples.

Results

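The gene encoding p53 (Trp53), 2 of its inhibitors (Mdm2 and Mdm4) and 7 classic p53 target genes outside the BCL2 family (Cdkn1a, Ccng1, Phlda3, Zmat3, Plk3, Aen and Sesn1) were followed in X63/0 cells, a mouse plasmacytoma line of B cell origin. The 10 genes were taken by symbol from a table of 43346 features, and all 10 had enough reads to be compared. RNA-seq of ribosomal RNA-depleted total RNA was available for cells treated for 3 h with 30 mM cycloleucine and for untreated cells of the same line. Cycloleucine, a non-metabolised amino acid, blocks methionine adenosyltransferase and with it the synthesis of the methyl donor S-adenosylmethionine. The design text describes a triplicated experiment, and 1 library per group was analysed here. Whether each library is a single culture is not stated, so culture, library and treatment cannot be told apart. With 1 library a group, no p-value is given, and intervals cover counting error only. In a bulk culture, fewer expressing cells and less RNA per cell cannot be told apart either.

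p53 is a transcription factor that is kept at a low protein level by MDM2, a ubiquitin ligase that marks it for degradation, with the help of the related protein MDM4. DNA damage, ribosomal stress or oncogene signals release p53 from MDM2, and p53 then switches on genes for cell cycle arrest, repair, metabolic restraint and cell death. Mdm2 is itself a p53 target, which closes a negative feedback loop, and the pathway is often disabled in B cell tumours by loss of p53 or of the ARF protein, or by an excess of MDM2. Because p53 is controlled mainly at the protein level, the amount of Trp53 RNA does not measure its activity.

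p53 binds DNA as a tetramer to a pair of adjoining copies of a short palindromic motif, the p53 response element. Windows of 250 bases before to 50 bases after annotated gene starts (RefSeq, GRCm38.p6) were available for 9 of the 10 genes, 13 windows in all, and Zmat3 had none. The motif was searched as the 20-base p53 consensus without a spacer, with the C and G of each core required. The motif reads the same on both strands, so a single search covered both. The best sites are shown because they are the closest matches to the p53 motif in these windows. Capitals mark the 20 matched bases, in the direction of the gene, with 5 flanking bases in lower case on each side.
Cdkn1a: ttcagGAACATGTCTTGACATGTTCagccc
Ccng1: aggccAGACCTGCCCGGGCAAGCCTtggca
Trp53: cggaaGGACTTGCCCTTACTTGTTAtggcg
Aen: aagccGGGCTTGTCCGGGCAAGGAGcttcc
Sesn1: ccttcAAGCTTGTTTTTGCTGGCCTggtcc
The Cdkn1a site lies at chr17:29090928-29090947 on the plus strand and the Ccng1 site at chr11:40755462-40755481 on the minus strand, and each has 1 mismatch to the consensus. Their first bases lie at positions -51 and -195 relative to the annotated start, written Cdkn1a first. Cdkn1a has 2 starts, and its site lies before the upstream one. The best match in the window of its other start had 7 mismatches. The sites of Trp53 (chr11:69580284-69580303, plus strand), Aen (chr7:78895937-78895956, plus strand) and Sesn1 (chr10:41887266-41887285, plus strand, before the downstream of its 2 starts) have 3 mismatches each. A site with at most 1 mismatch was found in 0.067% of all 32851 promoter windows of that length, and a site with at most 3 mismatches in 1.38%. No window of Mdm2, Mdm4, Phlda3 or Plk3 held one with at most 3 mismatches, which says only that these letters are not in these windows. A single copy of the motif without mismatch was in windows of 6 of the genes, Mdm2 among them, and in 8.36% of all windows. Sequence outside these windows, most of each intron included, was not searched. A match is a description of the sequence and does not show that p53 bound there.

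The cycloleucine library held 31951946 reads in genes and the untreated library 27127865, and 49.4% and 48.4% of them lay in exons. All 8 plasma cell markers were measured, with a summed level of 879 RPKM in the cycloleucine library and 870 RPKM in the untreated library (RPKM, exon reads scaled to exon length and to total gene reads). Other cell types left little trace: 0 of 5 T and natural killer cell genes and 0 of 4 fibroblast genes were measured, and of 5 myeloid genes Cd68 alone was, at 1.15 and 1.17 RPKM. Of 5 B cell markers 2 were measured, Cd79b and Ms4a1, while Pax5 had 2 exon reads in the cycloleucine library and 0 in the untreated library. Of the Ms4a1 exon reads, 28.3% in the cycloleucine library and 34.8% in the untreated library were uniquely placed. All of these unique Ms4a1 reads crossed a junction between exons.

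The baseline of the pathway was dominated by Mdm2. Its level was 512 RPKM in the cycloleucine library and 517 RPKM in the untreated library, from 82872 and 71053 exon reads. That placed it 52nd among 9101 measured features in each library. It took 0.525% of all exon reads in the cycloleucine library (0.521% to 0.529%, exact binomial interval) and 0.541% in the untreated library (0.538% to 0.545%). Per length of exon, Mdm2 RNA exceeded Trp53 RNA 15.4-fold in the cycloleucine library (15.0 to 15.9) and 17.2-fold in the untreated library (16.6 to 17.8).

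**Figure D1:**
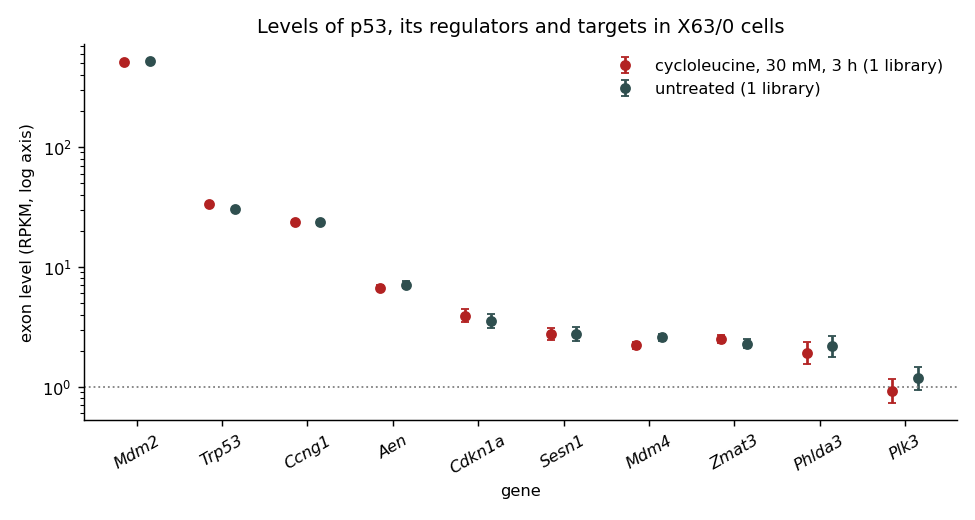
Exon level (RPKM, log axis) of the 10 genes in the cycloleucine library (red, left) and the untreated library (dark, right), with 95% exact Poisson intervals of the exon reads. Mdm2 stands at 512 and 517 RPKM, Trp53 at 33.1 and 30.1 RPKM and Ccng1 at 23.8 and 23.5 RPKM, with the other 7 genes at or below Aen (6.72 and 7.12 RPKM), and the dotted line marks 1 RPKM.

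The remaining genes fell into an intermediate and a low group. Trp53 and Ccng1, which encodes cyclin G1, a partner of protein phosphatase PP2A that acts on MDM2, followed Mdm2 in both libraries. Trp53 ranked 928th in the cycloleucine and 1019th in the untreated library, and Ccng1 1312th and 1328th. Aen, which encodes a p53-induced nuclease that promotes apoptosis, came next at 6.72 and 7.12 RPKM. Cdkn1a, the gene of the cyclin-dependent kinase inhibitor p21 and the best known p53 target, was low at 3.93 RPKM in the cycloleucine library (3.48 to 4.42) and 3.53 RPKM in the untreated library (3.07 to 4.04). Mdm2 thus stood 130-fold above Cdkn1a in the cycloleucine library (116 to 147) and 146-fold above it in the untreated library (128 to 168). In the untreated library the intervals of Cdkn1a and Sesn1, of Sesn1 and Mdm4, of Mdm4 and Zmat3 and of Zmat3 and Phlda3 overlapped, so the order of these neighbours is not resolved by counting. In the cycloleucine library Cdkn1a stood apart from Sesn1, and overlap linked Sesn1 with Zmat3, Zmat3 with Mdm4 and Mdm4 with Phlda3. Plk3 was the lowest in both libraries, and its interval did not overlap that of Phlda3.

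After 3 h of cycloleucine, none of the 10 genes differed by 1.5-fold: 0 passed that limit upward and 0 downward. Over all 9101 measured features, 2.16% passed it upward and 1.88% downward, so a count of 0 among 10 genes lies near that background. At a limit of 2-fold the background was 0.374% upward and 0.44% downward, and the count among the 10 genes was likewise 0 and 0. The log2 fold change, computed after adding 0.1 RPKM to each value, ran from -0.32 in Plk3 to 0.15 in Cdkn1a. The median was -0.01, beside 0.0022 over all measured features, with 4 genes above and 6 below 0. The middle 95% of all measured features lay between -0.52 and 0.55.

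Trp53 (chr11:69580359-69591873, mm10, plus strand) had 4284 exon reads in the cycloleucine library and 3302 in the untreated library, or 33.1 RPKM (32.2 to 34.2) and 30.1 RPKM (29.1 to 31.1). The ratio of cycloleucine to untreated was 1.10 (95% counting interval 1.05 to 1.15). Its log2 fold change of 0.14 lay inside the middle 95% of the 5615 features with at least 1000 exon reads, -0.33 to 0.38. Spliced RNA alone, read from exon-exon junctions, did not show the same excess, with 1283 uniquely placed reads in the cycloleucine library and 1139 in the untreated library and a ratio of 0.956 (0.882 to 1.04). Intron reads were few, 138 and 97, with a ratio of 1.21 (0.925 to 1.58). The log2 change of the junction to exon ratio, -0.20, lay inside the middle 95% of 7375 genes, -0.60 to 0.60. Trp53 starts head to head with Wrap53 on the opposite strand, and no source used here states whether strand was used in counting. Wrap53, which encodes a telomerase and Cajal body protein, stood at 4.75 RPKM in the cycloleucine library and 5.92 RPKM in the untreated library.

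Mdm2 exon reads were nearly equal per total gene reads, with a ratio of 0.990 (0.980 to 1.0). With uniquely placed exon reads, scaled to uniquely placed gene reads, the ratio was 1.02 (1.01 to 1.03). Of Mdm2 exon reads 99.6% in the cycloleucine library and 99.4% in the untreated library were uniquely placed. The direction thus depends mainly on the total used for scaling. Junction reads numbered 20932 in the cycloleucine library and 18530 in the untreated library, a ratio of 0.959 (0.94 to 0.978). Intron reads numbered 10237 and 9690, a ratio of 0.897 (0.872 to 0.922). Intron reads made up 11% of Mdm2 gene reads in the cycloleucine library and 12.0% in the untreated library. At this depth small departures from 1 exceed counting error, but variation between cultures was not measured.

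Mdm4 (chr1:132959484-133030561, minus strand), whose protein binds p53 and pairs with MDM2, had 927 exon reads in the cycloleucine library and 922 in the untreated library, or 2.21 RPKM (2.07 to 2.36) and 2.59 RPKM (2.43 to 2.77). The ratio was 0.854 (0.778 to 0.936) from all exon reads. From uniquely placed exon reads, scaled to uniquely placed gene reads, it was 0.922 (0.834 to 1.02). Its unique share was 87.2% in the cycloleucine library and 82.6% in the untreated library, and the annotated Mdm4 pseudogene on chromosome X had 21 and 29 gene reads. Junction reads were 110 and 77, a ratio of 1.21 (0.898 to 1.64), and intron reads 911 and 742, a ratio of 1.04 (0.945 to 1.15). The ratios of the 3 kinds of read therefore did not share a direction, but the junction and intron intervals both included 1. Intron reads made up 49.6% of Mdm4 gene reads in the cycloleucine library and 44.6% in the untreated library, against 11% and 12.0% in Mdm2. However, 517 of the 911 and 450 of the 742 Mdm4 intron reads were uniquely placed. In Mdm2 9962 of 10237 and 9402 of 9690 were, so the 2 shares are not fully comparable.

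Among the cell cycle targets, Cdkn1a (chr17:29090979-29100722, plus strand) had 279 exon reads in the cycloleucine library and 213 in the untreated library, a ratio of 1.11 (0.927 to 1.34). Junction reads of Cdkn1a numbered 24 and 16, intron reads 42 and 37, and both intervals of the ratio included 1. Ccng1 (chr11:40748552-40755311, minus strand) had 2666 and 2237 exon reads, or 23.8 and 23.5 RPKM, with a ratio of 1.01 (0.956 to 1.07) and a junction read ratio of 0.992 (0.833 to 1.18). Plk3 (chr4:117128655-117133963, minus strand), which encodes a polo-like kinase of the stress response, had 75 exon reads in the cycloleucine library and 81 in the untreated library, or 0.927 RPKM (0.729 to 1.16) and 1.18 RPKM (0.937 to 1.47). Its ratio of 0.786 had an interval from 0.566 to 1.09, so a change of 1.5-fold downward was within counting error. The 2 genes whose p53 sites had the fewest mismatches, Cdkn1a and Ccng1, thus had ratios of 1.11 and 1.01, and both intervals included 1.

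Of the targets that act in cell death and growth signalling, Aen (chr7:78895854-78911209, plus strand) had 1222 exon reads in the cycloleucine library and 1098 in the untreated library, a ratio of 0.945 (0.870 to 1.03). Of its exon reads 80.9% and 78.6% were uniquely placed. The ratio from unique exon reads, scaled to unique gene reads, was 0.996 (0.908 to 1.09). Phlda3 (chr1:135766119-135769136, plus strand), whose protein competes with AKT for membrane lipids, had 96 and 92 exon reads, or 1.93 RPKM (1.56 to 2.35) and 2.18 RPKM (1.75 to 2.67), and 2 and 0 intron reads. Its ratio was 0.886 (0.659 to 1.19). The exon reads of these genes lay close together in the 2 libraries, with both intervals including 1.

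Zmat3 and Sesn1 were alike in that junction reads departed from exon reads. Zmat3 (chr3:32334792-32366014, minus strand) encodes an RNA-binding zinc finger protein that regulates splicing and mRNA stability. It had 644 exon reads in the cycloleucine library and 503 in the untreated library, or 2.49 and 2.29 RPKM, with a ratio of 1.09 (0.966 to 1.22). Its junction reads numbered 47 in the cycloleucine library and 21 in the untreated library, a ratio of 1.90 (1.11 to 3.35), and its intron reads 57 and 74, a ratio of 0.654 (0.455 to 0.936). Sesn1 (chr10:41810574-41908424, plus strand) encodes sestrin 1, which restrains mTORC1 when amino acids are scarce. It had 292 exon reads in the cycloleucine library and 249 in the untreated library, or 2.75 and 2.76 RPKM, with a ratio of 0.996 (0.838 to 1.18). Its junction reads numbered 67 and 30, a ratio of 1.90 (1.22 to 3.02), and its intron reads 678 and 514, a ratio of 1.12 (0.997 to 1.26). Of these Sesn1 intron reads, 259 and 192 were uniquely placed.

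The log2 change of the junction to exon ratio was 0.91 in Sesn1, 51st from the top of 7375 genes, and 0.79 in Zmat3, 80th, both above the middle 95%. Junction counts of this size scatter widely. Among 1712 genes with 50 to 150 junction reads over both libraries, the middle 95% of junction to exon changes ran from -0.96 to 0.92, so Sesn1 lay just inside its upper end and Zmat3 inside it. In that group 49 genes had a change at or above that of Sesn1 and 74 one at or above that of Zmat3. These 2 genes were singled out for their junction reads after their values were seen. The log2 change of the intron to exon ratio was -0.73 in Zmat3, below the middle 95% of 6803 genes (-0.66 to 0.72). That value rests on 57 and 74 intron reads, near the limit of 100 over both libraries. The range covers genes of every depth, and none was computed for genes with similarly few intron reads. In the other 5 genes with enough intron reads the change of this ratio lay inside the middle 95%, from -0.14 in Mdm2 to 0.29 in Mdm4. From uniquely placed reads the Mdm4 value was 0.12.

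**Figure D2:**
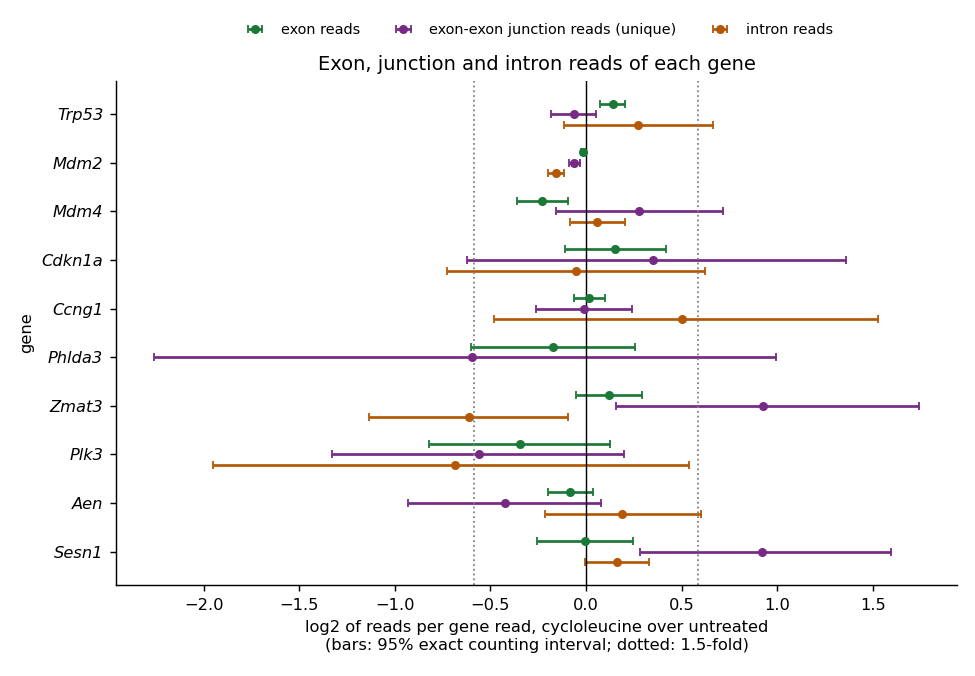
Log2 ratio of cycloleucine to untreated for exon, junction and intron reads of each gene, scaled by total gene reads, with 95% exact counting intervals; a kind of read with under 7 reads in either library is not drawn. Exon ratios of all 10 genes lie inside the dotted 1.5-fold lines, the junction reads of Zmat3 (0.93) and Sesn1 (0.92) lie to the right of them, and the junction reads of Phlda3 (-0.60) and the intron reads of Zmat3 (-0.61) and Plk3 (-0.68) lie to the left.

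Intron reads gave a second measure of the level of Mdm2. Scaled like RPKM but to intron length, the intron density of Mdm2 was 19.1 in the cycloleucine library and 21.3 in the untreated library, where the median of 8458 measured genes was 0.208 and 0.201. It ranked 34th and 31st. Trp53 had 0.578 and 0.479 on the same scale, Mdm4 0.492 and 0.472, Aen 0.392 and 0.343, and Cdkn1a 0.175 and 0.181. Thus Mdm2 was far above the other genes in intron as well as exon reads, whereas Ccng1, with 0.241 in the cycloleucine library and 0.170 in the untreated library, had an intron density near the median of all genes beside an exon level in the upper part of the range. The Ccng1 densities rest on 25 and 15 intron reads.

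**Figure D3:**
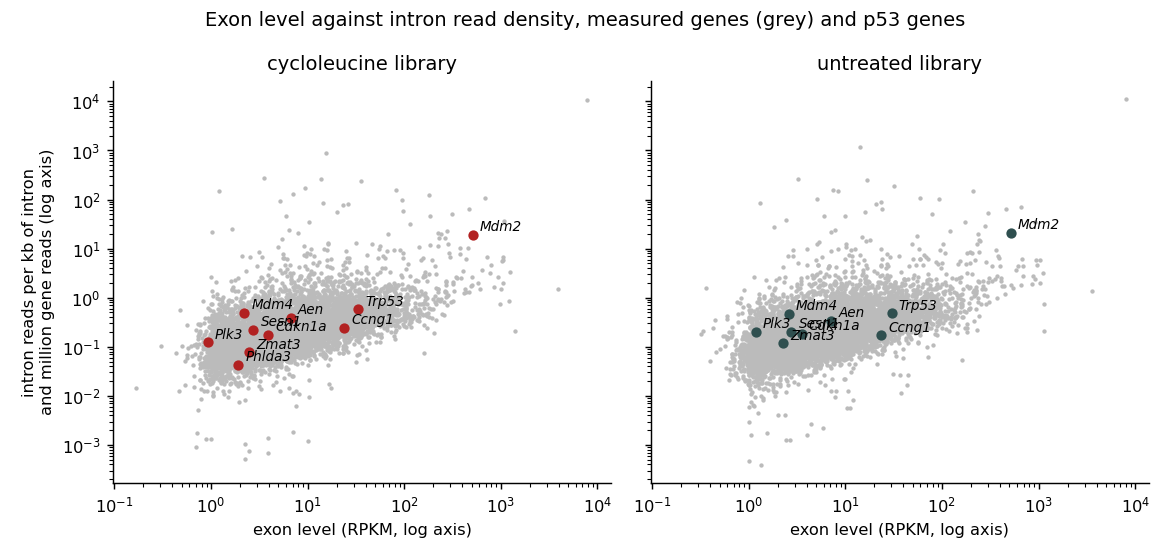
Exon level (RPKM) against intron density (intron reads scaled to intron length and total gene reads), both on log axes, for measured genes with at least 1000 bases of intron (grey) and the p53 genes (coloured), with the cycloleucine library on the left and the untreated library on the right. Mdm2 lies at the upper right with intron densities of 19.1 and 21.3, and Phlda3, which had 0 intron reads in the untreated library, is missing from the right panel.

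The high level of Mdm2 was not shared by 9 of the 10 genes around it. Mdm2 occupies chr10:117688888-117710758 (mm10, minus strand). Of the 5 nearest measured genes on each side, chosen after the level of Mdm2 was seen, 9 had levels between 2.5 and 29.3 RPKM in both libraries. The exception was Cct2, a chaperonin subunit gene 625 kb away, at 323 RPKM in the cycloleucine library and 305 RPKM in the untreated library. Slc35e3, 22.9 kb away, stood at 3.32 and 3.30 RPKM, Nup107, a nuclear pore gene, at 19.5 and 19.8 RPKM, and Rap1b, a small GTPase gene, at 28.3 and 29.3 RPKM. The highest intron density among the 10 neighbours was 0.865 in Cct2 in the cycloleucine library and 1.52 in Cpm in the untreated library, against 19.1 and 21.3 in Mdm2.

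Cpm, which encodes carboxypeptidase M, is the nearest neighbour of Mdm2 and lies tail to tail with it, with 1.54 kb between the annotated ends. It had 1282 exon reads in the cycloleucine library and 2536 in the untreated library, or 6.73 and 15.7 RPKM, a ratio of 0.429 (0.401 to 0.459). Its intron reads numbered 1003 and 2140, a ratio of 0.398 (0.369 to 0.429), while those of Mdm2 had a ratio of 0.897. Its junction reads went the other way, with 44 in the cycloleucine library and 21 in the untreated library, a ratio of 1.78 (1.04 to 3.15), and were 3.48% and 0.838% of its unique exon reads. The other 9 neighbours were within 1.5-fold, from 0.963 in Rap1b to 1.30 in Frs2. Without strand information, reads that run past the end of either gene cannot be assigned to one of them. Mdm2 RNA exceeded Cpm RNA per length 76.0-fold in the cycloleucine library and 33.0-fold in the untreated library.

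**Figure D4:**
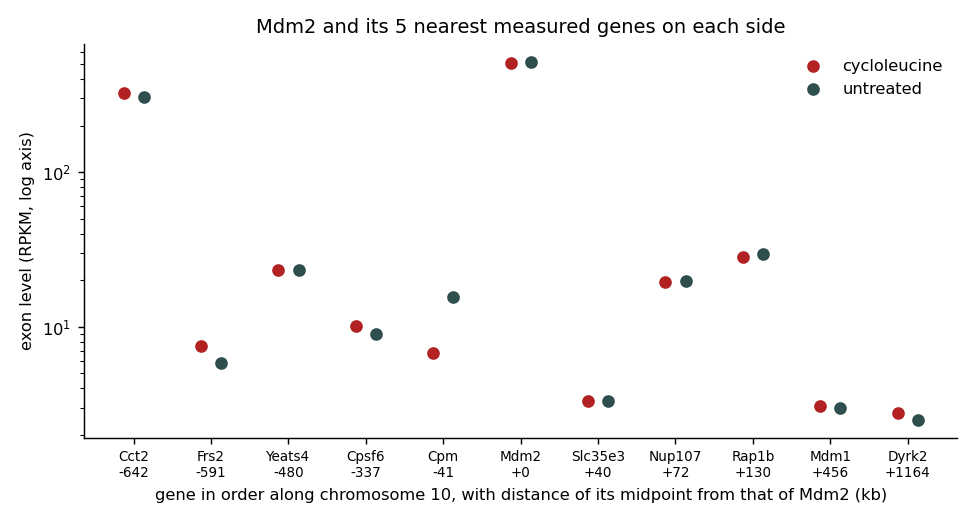
Exon level (RPKM, log axis) of Mdm2 and its 5 nearest measured genes on each side in order along chromosome 10, with the cycloleucine library (red, left) and the untreated library (dark, right). Mdm2 stands at 512 and 517 RPKM between Cpm at 6.73 and 15.7 RPKM and Slc35e3 at 3.32 and 3.30 RPKM.

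Of 36 further targets outside the BCL2 family, 25 were measured, of which 0 passed 1.5-fold upward and 0 downward, near the background of 2.16% and 1.88%. Their log2 fold changes had a median of 0.00083, with 13 above and 12 below 0. The highest was Ppm1d, the gene of the WIP1 phosphatase that turns the p53 response off, at 10.8 RPKM in the cycloleucine library and 7.38 RPKM in the untreated library, a ratio of 1.47 (1.33 to 1.62). Gadd45a, a DNA damage and stress gene, had 6.69 and 4.62 RPKM, a ratio of 1.45 (1.22 to 1.72), with 62.1% and 67.4% of its reads uniquely placed. Btg2, an antiproliferative gene that also responds to growth factors, had 286 and 207 RPKM, a ratio of 1.38 (1.35 to 1.41). The log2 fold changes of Ppm1d (0.55) and Btg2 (0.47) lay above the range used for Trp53. That range is the middle 95% of features with at least 1000 exon reads over both libraries, -0.33 to 0.38. The other further targets with that many reads lay inside it. Tnfrsf10b, a death receptor gene, had 1.38 and 1.77 RPKM, a ratio of 0.782 (0.617 to 0.990). Some of these targets were abundant in both libraries, among them Rps27l at 197 and 176 RPKM and Trp53inp1 at 91.7 and 78.0 RPKM. Both are named here outside the naming rule.

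Of the BCL2 family genes that p53 induces, all 3 were measured. Pmaip1, which encodes NOXA, had 3.70 RPKM in the cycloleucine library and 2.80 RPKM in the untreated library, a ratio of 1.32 (1.10 to 1.59). Bbc3, which encodes PUMA, had 7.81 and 7.09 RPKM, and Bax 36.2 and 37.5 RPKM, and the intervals of both ratios included 1.

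Upstream regulators and cofactors of p53 had 23 of 26 genes measured, 14 above and 9 below 0, with 0.03 as the median log2 fold change and 0 genes past 1.5-fold in either direction. Of all measured features, 50.6% lay above 0, and 2.16% and 1.88% were past 1.5-fold upward and downward. Topors, a ubiquitin and SUMO ligase gene for p53, had 13.7 RPKM in the cycloleucine library and 9.88 RPKM in the untreated library, a ratio of 1.38 (1.28 to 1.5). The deacetylase gene Sirt1 had 4.13 and 3.0 RPKM, a ratio of 1.38 (1.22 to 1.56), and the deubiquitinase gene Usp10 2.5 and 1.91 RPKM, a ratio of 1.31 (1.12 to 1.52). Of the unique exon reads of Usp10, 429 of 433 in the cycloleucine library and 279 of 279 in the untreated library crossed a junction, so its level rests almost wholly on junction reads. The acetyltransferase gene Ep300 had 7.58 and 6.28 RPKM, a ratio of 1.21 (1.14 to 1.28). In log2 fold change, Topors (0.46) and Sirt1 (0.45) lay above the middle 95% of features with at least 1000 exon reads, -0.33 to 0.38. The other regulators and cofactors with that many reads lay inside that range. Cdkn2a, which encodes the MDM2 inhibitor ARF and the kinase inhibitor p16, was at 66.8 RPKM in the cycloleucine library and 65.3 RPKM in the untreated library, a ratio of 1.02 (0.965 to 1.08). It is named here for its level after its values were seen, and the table does not separate its 2 products. The other p53 family genes were near the floor, Trp63 with 13 and 13 exon reads and Trp73 with 4 and 2.

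A list of close relatives of the 10 genes included a gene past 1.5-fold. It holds 2 genes that are also counted among the further p53 targets, Sesn2, which was measured and enters both medians, and Plk2, which was not. Of 10 such relatives 7 were measured, with 0.33 as the median log2 fold change, and 1 was at least 1.5-fold higher, where 2.16% of all measured features were. The median was 0.026 among relatives with at least 5 RPKM in either library. The gene past 1.5-fold was Ccng2, the gene of cyclin G2, at 3.0 RPKM in the cycloleucine library and 1.13 RPKM in the untreated library, a ratio of 2.64 (2.22 to 3.16), beside 1.01 for its relative Ccng1. Cdkn1b, which encodes p27, had 8.44 and 5.86 RPKM, a ratio of 1.44 (1.31 to 1.58), beside 1.11 for Cdkn1a. The log2 fold change of Cdkn1b, 0.52, lay above the middle 95% of features with at least 1000 exon reads, -0.33 to 0.38. The other relatives with that many reads lay inside that range. Sesn3 had 4.27 and 2.98 RPKM, a ratio of 1.43 (1.18 to 1.74), beside 0.996 for Sesn1, while Sesn2 had 16.8 and 17.9 RPKM. Phlda1 had 3.32 and 2.62 RPKM, with 26.5% and 24.2% of its reads uniquely placed. Results for Ccng2 were known when this list was made, so the list is not independent evidence of a direction.

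**Figure D5:**
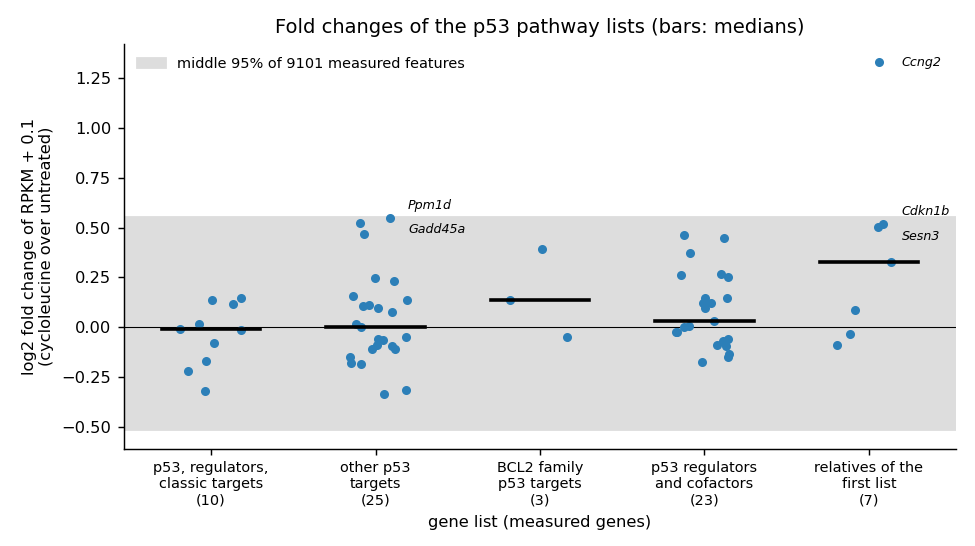
Log2 fold change of RPKM plus 0.1 for every measured gene of the 5 lists, with black bars at the list medians and a grey band over the middle 95% of all 9101 measured features. The medians are -0.01, 0.00083, 0.14, 0.03 and 0.33 from left to right, and Ccng2 is the gene far above the band.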

How the data were processed

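The deposited table gave read counts per gene, whole numbers that the authors split into total and uniquely placed gene, exon, exon-exon and intron reads, per the file headers, and RPKM values computed by the authors. Multiplying RPKM by exon length and total gene reads returned the exon reads in 29646 of 29646 annotated features of each library, within 0.02 reads plus a share of 0.0001. The submitters' processing notes name mm10 as the build. Aligner, counting tool, annotation release and strand setting: not given in the sources used here. Among its columns, 0 belonged to other libraries.

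Features with at least 1 RPKM in either library and at least 50 exon reads over both were compared, 9101 in all. Ratios are of exon, junction or intron reads per total gene reads, with 95% exact (Clopper-Pearson) intervals. Ratios of uniquely placed exon reads are per uniquely placed gene reads instead. These made up 63.0% of gene reads in the cycloleucine library and 64.5% in the untreated library. Levels have exact Poisson intervals. Without molecular identifiers, PCR copies cannot be told from separate molecules, so intervals and floors cover counting error only. A count of 0 allows up to 3 counts, or 0.0939 RPKM in the cycloleucine library and 0.111 RPKM in the untreated library for 1 kb of exon. Log2 fold changes add 0.1 RPKM, which understates changes of low genes. Intron to exon ratios needed 100 intron and 200 exon reads over both libraries, junction to exon ratios 50 junction and 200 exon reads, and 0.5 was added to each count. Starts and strands came from the table and GENCODE M21, promoter sequences from RefSeq.

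Members and lists were chosen with earlier results of these data known, and the junction to exon ratio and the neighbours of Mdm2 were added after seeing the data. Named genes were the 10 members, up to 4 measured genes of every other list with the largest change, any past 1.5-fold, and the p53 family. Scaling alternatives used edgeR 4.0.16 and DESeq2 1.42.0, and other values Python 3.11.15 and scipy 1.17.1.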

Additional observations from a re-analysis of the deposited data

How the results depend on the processing

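No paired analysis was possible because the cycloleucine and untreated groups hold a single library each; no replicate check exists. Across 9 alternatives (pseudocount 1, unique reads, TMM and median ratio scaling, no filter, at least 5 RPKM, exon and intron reads together, a 2-fold rule, and features with over 50% unique reads, the last added after seeing the data), 0 of the 10 genes reached 1.5-fold in either direction, although 4 genes alone passed 5 RPKM. The filter settings (no filter, at least 5 RPKM, over 50% unique reads) and the 2-fold rule change no gene's own value. They could therefore not raise that count. Values under the filters are among the 186 below and could not leave their counting interval. List medians stayed inside the median counting bounds of their genes except that of the relatives, which was 0.026 with at least 5 RPKM. Fewer genes enter there. Of 186 values of single genes under alternatives, 5 left their counting interval: Mdm2 at 0.02 with unique reads and -0.03 with introns included, Mdm4 at -0.09 with introns included, Btg2 at 0.50 with unique reads, and Ccng2 at 0.91 with a pseudocount of 1. The sign of Mdm2 differed with unique reads, and that of Sesn1 with unique reads (0.03) and with introns included (0.11). The setting with unique reads also scales to unique gene reads, and it moved the median of all features to 0.03. Of Sesn1 exon reads 100% in the cycloleucine library and 99.6% in the untreated library were unique, so its sign there depends mainly on the scaling. Depth limits Plk3 and Phlda3, whose intervals allow ratios down to 0.566 and 0.659.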

Other observations

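Several p53 targets had too few reads to be compared, and those named here were chosen after their values were seen. Fas, a death receptor gene, had 43 exon reads in the cycloleucine library and 22 in the untreated library, a ratio of 1.66 (0.971 to 2.91), and 31 and 10 intron reads, a ratio of 2.63 (1.26 to 6.02). Ak1, an adenylate kinase gene, had 6 and 18 exon reads, a ratio of 0.283 (0.0920 to 0.744). Perp, a desmosome gene that p53 induces, had 0 exon reads in each library. Trp53cor1, the noncoding RNA also called lincRNA-p21 that lies upstream of Cdkn1a, had 27 and 22 exon reads.

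Some genes of the lists had many intron reads beside few exon reads. Hipk2, a kinase gene that acts on p53, had 1035 intron reads in the cycloleucine library and 1122 in the untreated library, 902 and 964 of them uniquely placed, but 15 and 14 exon reads. Rrm2b, the p53-induced ribonucleotide reductase subunit gene, had 2536 and 2233 intron reads beside 392 and 418 exon reads, but 122 and 118 of the intron reads were uniquely placed. Trp73 had 165 and 110 intron reads, 154 and 100 of them unique, beside 4 and 2 exon reads. The source of these intron reads was not tested.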
